A study of Mus musculus with 20 samples.

Results

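The tumour suppressor gene Trp53 and 9 genes of its feedback and arrest programme were followed through every library of an RNA-seq study of Trim33-deficient mouse liver cancer cells. The 10 genes, Trp53, Mdm2, Mdm4, Ccng1, Ppm1d, Cdkn1a, Btg2, Plk2, Sesn1 and Zmat3, were chosen by symbol, and all 10 had a row in both count tables, which list 13107 and 11210 genes. The study used CRISPR to delete Trim33, a nuclear E3 ubiquitin ligase, in p19/Nras cells, and asked how the loss alters the response to replicative stress from the oncoprotein Myc or from hydroxyurea (HU), which starves DNA synthesis of nucleotides. The p19/Nras line comes from a liver tumour driven by Nras in mice lacking p19Arf, so every group, controls included, carried Nras and lacked p19Arf, the protein that normally restrains Mdm2. In the Myc experiment, Trim33-WT cells (guide sgCtrl) and a pair of knockout lines, Trim33-KO1 and Trim33-KO2 (guide sgTrim33), carried the vector pWZL, here called Ctrl, or a Myc vector, with 2 libraries in each of 6 groups. In the HU experiment, Trim33-WT and Trim33-KO cells received vehicle or 1 mM HU for 4 h, with 2 libraries in each of 4 groups. The knockout line used there is not given by the labels. The labels also do not say whether the libraries of a group came from separate cultures, so the p-values measure the spread between libraries, which may be technical.

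As background, the p53 protein is a transcription factor that is made continuously and destroyed continuously. Mdm2, a ubiquitin ligase, marks it for degradation and Mdm4 covers its activation domain, and since p53 itself drives Mdm2, the pair forms a negative feedback loop that DNA damage signalling interrupts. Stabilized p53 then raises the cell cycle inhibitor p21 (Cdkn1a) and other arrest genes, together with brakes on its own activity such as cyclin G1 (Ccng1) and the phosphatase Wip1 (Ppm1d).

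Direct p53 targets carry a response element made of 2 copies of a 10-base half-site, and elements near the members are shown here. The half-site is 3 purines, a C, 2 bases that are A or T, a G and 3 pyrimidines. Both strands were searched within 3000 bases on either side of the first annotated start of each gene, for 2 half-sites without a spacer and with both CNNG cores intact. The sequences are from the mm9 genome, 5′ to 3′ along the gene, and the capitals mark the core of each half-site.
Cdkn1a: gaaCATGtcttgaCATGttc
Zmat3: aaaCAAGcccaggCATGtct
Ccng1, intron: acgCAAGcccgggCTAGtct
Ccng1, upstream: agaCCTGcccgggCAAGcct
The Cdkn1a element, chr17:29227873-29227892 on the plus strand, had 1 mismatch and lay 42 bases before the first annotated start of the gene, and 2835 bases before the next annotated start. The Zmat3 element, chr3:32263253-32263272 on the minus strand, matched without a mismatch and lay in an intron, 1337 bases after the first start. Ccng1 had 2 elements with 1 mismatch each on the minus strand, one in an intron at chr11:40568438-40568457 and one 161 bases upstream at chr11:40568964-40568983. With at most 1 mismatch, 3 of the 10 members (30.0%) held a match, against 216 of 22372 protein-coding genes (0.965%) searched in the same way. Allowing 2 mismatches added Plk2, with 2 upstream matches, so that 4 members (40.0%) held one against 5.94% of all genes. The members were picked as genes of the p53 programme, so a share above that of all genes may follow from that choice and is not a test. A match is a description of letters, and a gene without one in this window may hold an element elsewhere or with a spacer.

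Libraries of the Myc experiment held 14753177 to 17949430 counts and those of the HU experiment 2315327 to 3082202, so low genes were measured less closely in the latter. Values are given as CPM, counts per 1000000 counts of the library, in replicate order, and fold changes come from edgeR's quasi-likelihood test, which adds its own (TMM) scaling. Trim33, the deleted gene, had 236 and 247 CPM in the WT cells with the Ctrl vector, where KO1 showed 122 and 130.3 and KO2 showed 204 and 210.1. Of the libraries with the Myc vector, the WT-labelled pair gave 132 and 158 CPM of Trim33, the KO1-labelled pair 186 and 195 and the KO2-labelled pair 125 and 126. CRISPR edits can leave mRNA without protein, but Trim33 mRNA of the KO1-labelled pair exceeded that of the WT-labelled pair (log2FC 0.40, adjusted p = 0.000243), the opposite of the labels, and the libraries of the Myc vector are called by their labels throughout. Over all 13107 genes, the root mean square difference of group means of log2(CPM + 0.5) was 0.425 between KO1 Myc and KO2 Ctrl against 0.584 between KO1 Myc and KO1 Ctrl, and 0.429 between KO2 Myc and KO1 Ctrl against 0.642 between KO2 Myc and KO2 Ctrl, so that the Myc libraries of each knockout label were nearer to the Ctrl libraries of the other. In the HU experiment Trim33 was at 141 and 127 CPM in WT vehicle and at 145 and 142 in WT HU, against 49.9 and 43.0 in KO vehicle and 50.1 and 51.5 in KO HU. Of 8 hepatocyte markers only Afp was in the tables, at 0.223 to 31.7 CPM, while Alb and the other 6 were not, and 3 of 5 biliary or progenitor markers, Krt19, Sox9 and Spp1, summed to 502 CPM or more in every library. Endothelial markers were absent from the tables (0 of 4) and of 5 immune markers only Cd68 was listed, at up to 6.39 CPM. Stellate or fibroblast markers moved with the groups: 4 of 6 summed to about 50 CPM in WT Ctrl (49.9 to 50.4), 573 to 647.5 in KO1 Ctrl, 162 to 178 in KO2 Ctrl, 88.0 to 100.1 in WT Myc, 100.2 to 110.4 in KO1 Myc and 635 to 644 in KO2 Myc, and 3 of 6 summed to 58.6 to 65.2 in WT and 7.88 to 13.6 in KO cells of the HU experiment. Their part in the differences between WT and KO was not tested, and in bulk RNA fewer cells expressing a gene and less RNA per cell cannot be told apart.

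The first question was how the p53 circuit answered HU. In WT cells 8 of the 10 members rose and 0 fell at an adjusted p below 0.05, where 9.83% of all genes passed (6.39% upwards and 3.44% downwards), and in KO cells 7 rose and 0 fell, where 6.45% passed (4.65% upwards and 1.8% downwards). The same 7 genes, Mdm2, Cdkn1a, Ccng1, Ppm1d, Btg2, Plk2 and Zmat3, rose in both. The median log2FC of the 10 members was 0.82 in WT and 0.99 in KO cells, beside 0.00 and -0.01 over all genes. Trp53 mRNA itself stayed level.

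Trp53, which encodes p53, stood at 168 and 161 CPM in WT vehicle and at 165 and 166 in WT HU. In KO cells it stood at 229.6 and 252 CPM with vehicle and at 242 and 236 with HU. Vehicle and HU libraries overlapped in both genotypes, and the log2FC of -0.00 in WT had a 95% interval of -0.24 to 0.24 and that of -0.02 in KO one of -0.24 to 0.21.

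Among the regulators of p53, Mdm2 gave the smallest p-value of all 11210 genes in both genotypes. Mdm2 went from 182 and 174 CPM to 1266 and 1252 in WT and from 204 and 213 to 1687 and 1456 in KO. Each HU library lay far above each vehicle library, a 7.02-fold rise in WT (log2FC 2.81 ± 0.11 SE, adjusted p = 4.4e-31) and a 7.49-fold rise in KO (2.91 ± 0.11, adjusted p = 3.24e-32). Mdm4, the partner of Mdm2, went from 37.1 and 42.1 CPM to 60.3 and 59.7 in WT (log2FC 0.59 ± 0.20, adjusted p = 0.0496). In KO cells Mdm4 was at 39.5 and 26.9 CPM with vehicle and at 45.6 and 46.4 with HU, a log2FC of 0.48 ± 0.21 that did not pass (adjusted p = 0.199). Neither genotype's groups overlapped for Mdm4, and the WT call was the weakest of the 8. Ccng1, a cyclin that recruits a phosphatase to Mdm2, went from 590.4 and 527 CPM to 1036 and 1037 in WT (1.84-fold, adjusted p = 2.74e-10) and from 585 and 502 to 1142 and 1086 in KO (2.04-fold, adjusted p = 1.45e-12). Ppm1d, whose product dephosphorylates p53 and its activating kinases, went from 19.4 and 29.8 CPM to 38.3 and 45.9 in WT (1.68-fold, adjusted p = 0.0268) and from 25.6 and 22.6 to 50.8 and 42.9 in KO (1.94-fold, adjusted p = 0.00339).

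Among the arrest genes, 3 rose by 3.92-fold or more in both genotypes. Cdkn1a, the inhibitor of cyclin-dependent kinases, went from 57.9 and 50.5 CPM to 488 in both WT libraries, 8.96-fold (log2FC 3.16 ± 0.13, adjusted p = 3.14e-30), the second smallest p-value in WT. In KO cells Cdkn1a went from 85.8 and 95.2 CPM to 569.7 and 556, 6.18-fold (log2FC 2.63 ± 0.12, adjusted p = 5.82e-28). The KO libraries thus started and ended higher, without overlap with WT in either condition. Btg2, an antiproliferative partner of mRNA deadenylases, went from 19.0 and 13.8 CPM to 117 and 111 in WT (6.94-fold, adjusted p = 2.89e-18) and from 19.2 and 13.1 to 145 and 151 in KO (9.21-fold, adjusted p = 2.01e-21). Plk2, a polo-like kinase, went from 84.7 and 69.2 CPM to 405 and 376 in WT (5.05-fold, adjusted p = 8.59e-23) and from 79.9 and 90.9 to 379.6 and 293 in KO (3.92-fold, adjusted p = 1.01e-19).

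Both remaining members differed from these. Zmat3, an RNA-binding regulator of splicing, rose less, from 76.0 and 77.2 CPM to 108 and 118 in WT (1.46-fold, adjusted p = 0.00747) and from 81.1 and 90.3 to 129 and 144 in KO (1.58-fold, adjusted p = 0.000717). Sesn1, a sestrin that restrains mTORC1, was the lowest member also per kilobase of annotated exon. In WT it was at 11.2 and 13.0 CPM with vehicle and 8.11 and 9.88 with HU. In KO it was at 10.4 and 8.53 with vehicle and 5.92 and 7.80 with HU. The HU libraries of Sesn1 lay below the vehicle libraries in both genotypes, but with 17 to 34 counts per library neither log2FC passed, at -0.44 (95% interval -1.29 to 0.41) in WT and -0.47 (-1.37 to 0.43) in KO.

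**Figure D1:**
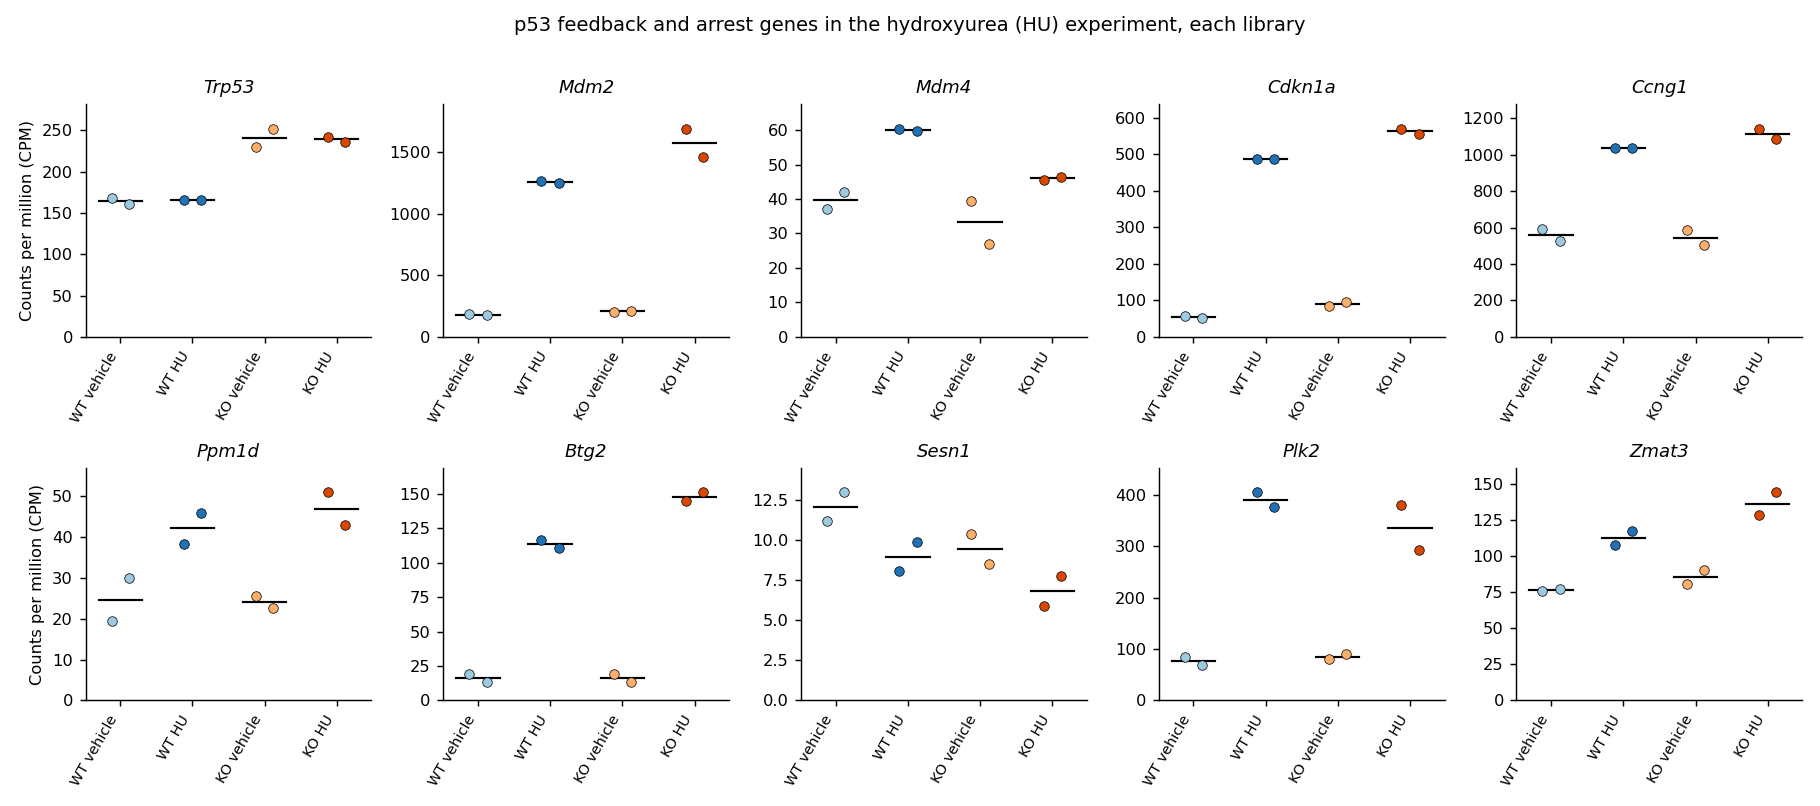
CPM (vertical axis, linear from 0) of each member in each library of the HU experiment, with a bar at the mean of the 2 libraries of a group. Mdm2, Cdkn1a, Btg2 and Plk2 stand apart between vehicle and HU libraries, Trp53 is level across HU and higher in KO than in WT cells, and Sesn1 stays at 13.0 CPM or below.

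**Figure D2:**
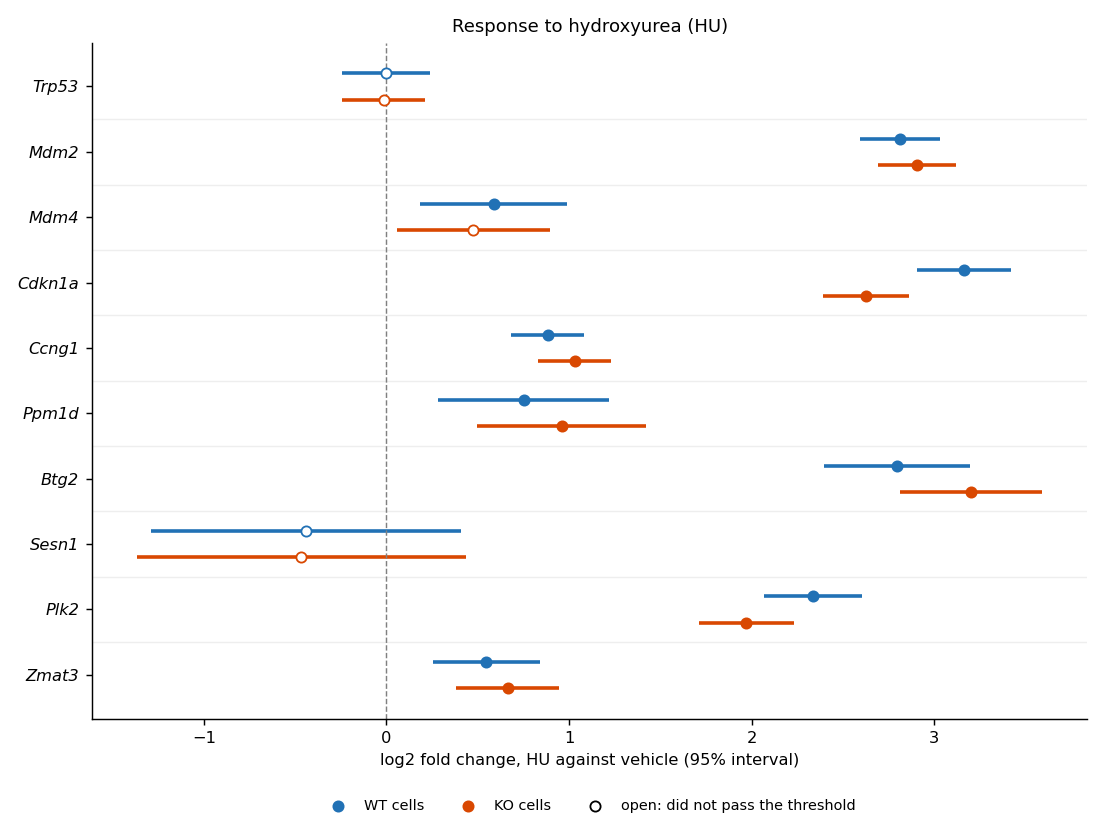
Log2 fold change of each member in HU against vehicle (horizontal axis) in WT and KO cells, with 95% intervals from the edgeR fit over 2 libraries per group. Filled points passed an adjusted p below 0.05, and the WT and KO intervals overlap for every member except Cdkn1a, at 2.91 to 3.42 in WT and 2.39 to 2.86 in KO.

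The difference between the genotypes' responses to HU passed for 0 of the 10 members in edgeR's quasi-likelihood test, where 8 of 11210 genes (0.0714%) passed, and for 0 in DESeq2. At an unadjusted p below 0.05 in that test, which 602 of all genes (5.37%) reached, 1 of the 10 members did, a share near that of all genes. It was Cdkn1a, with a response smaller in KO (difference in log2FC -0.54 ± 0.17, 95% interval -0.89 to -0.19, adjusted p = 0.641). For Mdm2 the difference was 0.09 (-0.20 to 0.39), for Plk2 -0.37 (-0.74 to 0.01) and for Btg2 0.41 (-0.19 to 1.00). Among the 8 WT calls, that of Mdm4 was lost when any 1 of its 4 libraries was left out (adjusted p 0.103 to 0.224) and in DESeq2 (0.161). That of Ppm1d was lost in DESeq2 (0.105) and without WT vehicle replicate 1 (0.314) or either WT HU library (0.0551 and 0.268), and that of Zmat3 without WT vehicle replicate 2 (0.0554) or WT HU replicate 2 (0.135). In KO cells the Ppm1d call was lost without KO vehicle replicate 2 (0.0711) or KO HU replicate 1 (0.117).

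Under HU, of 3 other lists of the p53 network, only rises were called among further p53 targets. Only falls were called among genes listed as repressed through p21. Whether these changes depended on p53 or p21 was not tested. Upstream regulators had calls in both directions. Of 47 further p53 targets in the table, 28 rose and 0 fell in WT and 29 rose and 0 fell in KO, where 6.39% and 4.65% of all genes rose, with medians of 0.75 and 0.77. Among targets with a mean of at least 5 CPM, the largest changes in WT were in Dusp1, a MAP kinase phosphatase (log2FC 3.86 in WT and 3.09 in KO), Gdf15, a stress cytokine (3.19 and 3.77), and Bbc3, which encodes the apoptosis inducer Puma (2.73 and 2.40). The death receptor gene Fas, below that level at a mean of 4.53 CPM, rose by 3.32 and 3.83. Of 30 mitotic and G2 genes that p21 represses through the DREAM complex, 0 rose and 16 fell in WT and 0 rose and 15 fell in KO, where 3.44% and 1.8% of all genes fell, with a median of -0.40 in each. Plk1, the main mitotic polo-like kinase, fell by 1.28 and 1.39 on the log2 scale in WT and KO, and Cenpf, a kinetochore protein, fell by 1.23 and 1.01. Cdc25c, a phosphatase of mitotic entry, fell by 1.21 in WT and was at -0.61 in KO, which did not pass (adjusted p = 0.203). Of 26 upstream regulators of p53, 4 rose and 1 fell in WT (15.4% and 3.85%), where 6.39% of all genes rose and 3.44% fell. In KO 2 rose and 3 fell (7.69% and 11.5%), where 4.65% of all genes rose and 1.8% fell. In each genotype 21 did not pass, with medians of -0.04 and -0.08. Trim24, a ubiquitin ligase for p53, rose in both (0.92 and 0.48). The acetyltransferase gene Crebbp rose in WT (0.81) and was at 0.73 in KO (adjusted p = 0.0683), and its paralog Ep300 rose in WT (0.64) and was at -0.01 in KO (adjusted p = 0.992). The 2 HU comparisons share no library.

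The next question was how knockout and WT cells differed in the circuit, first without added stress. Each knockout line was set against the same WT cells of its experiment. Trim33 loss and other differences between the lines therefore cannot be told apart in these comparisons. In the HU experiment 2 of the 10 members passed an adjusted p below 0.01 in vehicle-treated cells, both higher in KO, where 5.58% of all genes passed (3.07% upwards and 2.52% downwards). Trp53 was the first, at 229.6 and 252 CPM in KO against 168 and 161 in WT, 1.51-fold higher (log2FC 0.59 ± 0.12, adjusted p = 0.000241). Cdkn1a was the other, 1.73-fold higher (0.79 ± 0.14, adjusted p = 3.71e-05). Under HU again 2 of 10 passed, both higher in KO, where 6.04% of all genes passed (3.27% upwards and 2.77% downwards). Trp53 was 1.50-fold higher (0.58 ± 0.12, adjusted p = 0.000268) and Mdm2 1.29-fold higher (0.37 ± 0.10, adjusted p = 0.00646). The HU call of Mdm2 was lost without any 1 of the 4 libraries (adjusted p 0.0121 to 0.256), and that of Trp53 without KO HU replicate 1 or either WT HU library (0.0118 to 0.0179). Cdkn1a did not pass under HU (0.25 ± 0.10, adjusted p = 0.105) and did with those 4 libraries fitted alone (adjusted p = 0.00387).

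With the Ctrl vector, 7 of the 10 members passed between KO1 and WT, 3 higher and 4 lower, where 52.2% of all genes passed (25.5% higher and 26.7% lower). Between KO2 and WT 6 passed, 3 higher and 3 lower, where 49.9% passed (23.3% and 26.6%). At 7 and 6 of 10, the members' shares lay not far above those of all genes, and the summed stellate or fibroblast markers given above were also higher in both lines. Mdm2, Cdkn1a and Plk2 fell in both lines and Ccng1, Btg2 and Sesn1 rose in both. All WT libraries were shared by the pair of comparisons.

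Cdkn1a had 119 and 126 CPM in WT Ctrl, and this fell to 50.8 and 52.7 in the KO1 line and 67.4 and 66.8 in the KO2 line. Every knockout library lay well below both WT libraries, 2.46-fold lower in KO1 (log2FC -1.30 ± 0.08, adjusted p = 5.33e-10) and 1.93-fold lower in KO2 (-0.95 ± 0.08, adjusted p = 2.25e-08). Plk2 went from 339 and 329 CPM in WT to 169 and 179.8 in KO1 (-0.99 ± 0.08, adjusted p = 2.45e-08) and 250.3 and 232 in KO2 (-0.55 ± 0.08, adjusted p = 1.78e-05). Mdm2 was at 240.2 and 247 CPM in WT, while KO1 had 185 and 195 and KO2 had 214 and 213, a smaller fall of 0.41 ± 0.06 in KO1 (adjusted p = 9.69e-06) and of 0.27 ± 0.06 in KO2 (adjusted p = 0.000558) on the log2 scale. In each of the 3 genes KO2 lay between WT and KO1, though the difference of Mdm2 between KO2 and KO1 did not pass (log2FC 0.14, adjusted p = 0.0834).

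Btg2 moved the other way, from 29.8 and 31.2 CPM in WT to 79.5 and 80.6 in KO1 (2.52-fold, adjusted p = 5.74e-10) and 55.2 and 52.9 in KO2 (1.67-fold, adjusted p = 1.13e-06). Sesn1 went from 3.12 and 4.58 CPM in WT to 10.6 and 9.19 in KO1 (2.47-fold, adjusted p = 3.8e-06) and 7.56 and 8.39 in KO2 (1.95-fold, adjusted p = 0.000146), and stayed the lowest member. Ccng1 went from 208 and 199 CPM in WT to 277 and 279 in KO1 (1.32-fold, adjusted p = 0.000138) and 426 and 434 in KO2 (2.00-fold, adjusted p = 5.67e-09). For Ccng1 the change was thus larger in KO2, whereas for Btg2 and Sesn1 the KO1 value was the larger. Between KO2 and KO1, the difference of Sesn1 did not pass (log2FC -0.34, adjusted p = 0.088).

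Zmat3 split between the lines. Zmat3 was at 77.0 and 75.7 CPM in WT and 59.2 and 59.1 in KO1, a fall of 0.42 ± 0.07 on the log2 scale (adjusted p = 0.000109), but at 88.8 and 82.3 in KO2, a log2FC of 0.08 (95% interval -0.07 to 0.23) that did not pass. Trp53 had 209 and 207 CPM in WT, while KO1 had 232 and 229 and KO2 had 249.7 and 244. Its knockout libraries all lay above WT, with a log2FC of 0.10 (-0.01 to 0.21, adjusted p = 0.121) in KO1 and 0.17 (0.06 to 0.28, adjusted p = 0.0118) in KO2, short of the threshold that the latter passed with the WT and KO2 libraries fitted alone (0.000404). Mdm4 stood at 44.1 and 44.7 CPM in WT, with 40.8 and 43.4 for KO1 and 40.9 and 43.8 for KO2, with log2FC of -0.13 (-0.33 to 0.07) and -0.15 (-0.35 to 0.05). Ppm1d lay between 21.1 and 23.1 CPM in all 6 libraries, with a log2FC of 0.03 (-0.16 to 0.21) in KO1 and -0.01 (-0.19 to 0.18) in KO2.

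Between KO2 and KO1 themselves 5 of 10 members passed, 4 higher and 1 lower in KO2, where 18.3% of all genes passed (8.33% and 9.96%). Ccng1 was higher in KO2 by 0.60 ± 0.07 (adjusted p = 6.71e-06), Zmat3 by 0.50 ± 0.07 (adjusted p = 6.8e-05), Plk2 by 0.44 ± 0.08 (adjusted p = 0.000655) and Cdkn1a by 0.35 ± 0.08 (adjusted p = 0.00401), all on the log2 scale, and Btg2 was lower (-0.60 ± 0.08, adjusted p = 1.8e-05). The Cdkn1a call was lost without any 1 of the 4 libraries (adjusted p 0.0231 to 0.0437), and that of Plk2 without KO1 Ctrl replicate 1 or KO2 Ctrl replicate 1 (0.0161 and 0.0165).

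Set side by side, the knockout effects of the Ctrl vector cells and of the vehicle-treated cells had opposite signs for Cdkn1a (-1.30 and -0.95 against 0.79) and for Mdm2 (-0.41 and -0.27 against 0.27, the last not passing, adjusted p = 0.0984). Those of Btg2 were 1.34 and 0.74 against 0.01 (95% interval -0.50 to 0.53). Trp53, at 0.10 and 0.17 against 0.59, was the member with the largest fold difference from WT after Cdkn1a in the vehicle-treated cells and had one of the smaller in the Ctrl vector cells. For 3 members (Cdkn1a, Mdm2 and Sesn1) the libraries of both knockout lines lay on one side of WT with the Ctrl vector and those of KO on the other with vehicle, without overlap, where 20.3% of the 11161 genes in both tables did so, and nothing particular to the members is read from that count. The 2 experiments were sequenced to different depths, are in separate tables and were not put in 1 fit, and the difference between them was not tested. The knockout effects by member are plotted with the Ctrl vector, vehicle and HU.

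**Figure D3:**
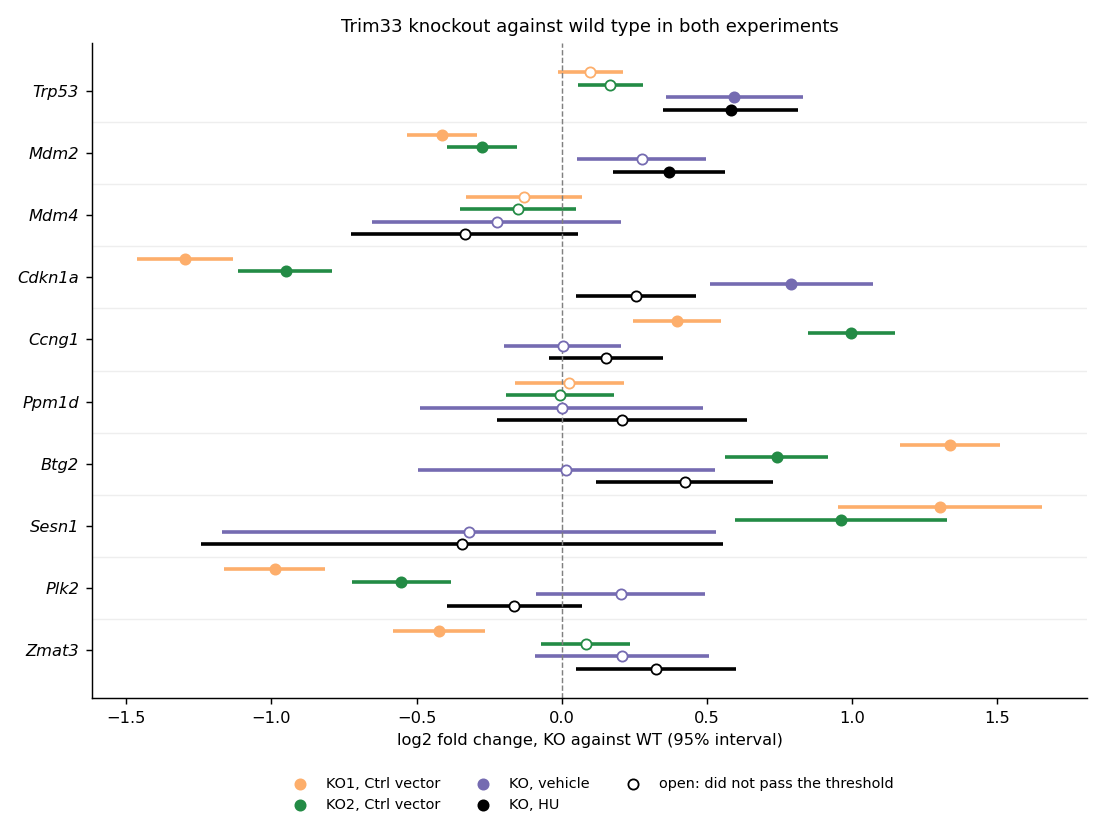
Log2 fold change of each member in KO against WT (horizontal axis) for KO1 and KO2 with the Ctrl vector and for KO with vehicle and HU, with 95% intervals and 2 libraries per group. Filled points passed an adjusted p below 0.01; Cdkn1a lies left of 0 in both Ctrl vector comparisons (-1.30 and -0.95) and right of it with vehicle (0.79).

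In the Ctrl vector cells the lists beyond the members divided. Of 50 further p53 targets, 16 rose and 18 fell in KO1 and 15 rose and 17 fell in KO2, with medians of -0.06 and -0.01. Of all genes, 25.5% rose and 26.7% fell in KO1, and 23.3% rose and 26.6% fell in KO2. Gdf15 (log2FC -4.70 in KO1 and -3.64 in KO2), the sestrin gene Sesn2 (-2.67 and -2.08) and the DNA damage gene Gadd45a (-2.15 and -2.58) had the largest changes shared by both lines among targets with a mean of at least 5 CPM. Below that level, Fas rose by 2.98 and 1.63 and the sestrin gene Sesn3 by 2.23 and 1.91. Of the 30 genes repressed through p21 and DREAM, 23 rose and 1 fell in KO1 and 28 rose and 0 fell in KO2, where 25.5% and 23.3% of all genes rose, with medians of 0.44 and 0.67. The mitotic kinesin gene Kif20a rose by 1.36 and 1.52 on the log2 scale, the proliferation antigen gene Mki67 by 1.04 and 1.51 and Mybl2, the B-Myb factor that activates mitotic genes, by 0.86 and 1.40. Of 27 regulators of p53, 10 rose and 5 fell in KO1 and 11 rose and 7 fell in KO2, among them Crebbp (0.53 and 0.82), the damage kinase gene Atm (0.64 and 0.65) and Hipk2, a kinase that phosphorylates p53 (0.58 and 0.66). In the vehicle-treated cells 5 of 47 further targets (10.6%) were higher and 1 lower in KO, where 3.07% of all genes were higher and 2.52% lower. Of the 30 DREAM genes 1 was higher (3.33%) and 0 lower, near the share of all genes. Cdkn2a, the locus that encodes p19Arf and p16Ink4a, still had 16.1 to 31.3 CPM in the Myc experiment and 9.58 to 18.7 in the HU experiment, and was higher in KO1 Ctrl than in WT Ctrl (log2FC 0.76, adjusted p = 1.2e-05). The counts do not separate its transcripts.

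The last question was the response to the Myc vector. Myc counts include both the cell's own and vector transcripts where the vector carries the mouse sequence, which the sources used here do not say. Myc had 415 and 421 CPM in WT Ctrl and 461 and 466 with the Myc vector under the WT label, a log2FC of 0.07 that did not pass (adjusted p = 0.31). It rose from 185 and 196 CPM in KO1 Ctrl to 624 and 655 in KO1 Myc (1.73, adjusted p = 1.2e-12), and from 213 and 222 in KO2 Ctrl to 462 and 503 in KO2 Myc (1.16, adjusted p = 9.14e-11). Since Trim33 also went against the labels, the directions below hold for the libraries as labelled.

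In the libraries labelled WT, 8 of the 10 members passed between Myc and Ctrl, 5 higher and 3 lower, where 44.3% of all genes passed (21.6% and 22.7%). In those labelled KO1, 6 passed, 5 higher and 1 lower, where 36.1% passed (17.9% and 18.2%), and in those labelled KO2, 4 passed, 3 higher and 1 lower, where 38.8% passed (20.2% and 18.6%). With only the WT Ctrl and WT Myc libraries in the fit, 4 members passed in place of 8. The share of all genes in that fit is not given here, so nothing particular to the members is read from that count. The libraries labelled WT Myc differed from each other by more than the pairs of other groups did, at 10.6 times the counting variance against 2.15 to 4.4. Of the 3 members called in both KO1 and KO2, Cdkn1a moved the same way and Btg2 and Ccng1 opposite ways, where 64.7% of the 2627 genes called in both moved the same way. Other readouts also moved in opposite ways under these labels: from Ctrl to Myc the summed stellate or fibroblast markers went from 573 to 647.5 CPM down to 100.2 to 110.4 in KO1 and from 162 to 178 up to 635 to 644 in KO2, Afp went up from 0.919 CPM or less to 2.57 or more in KO1 and down from 8.26 or more to 0.298 or less in KO2, and Trim33 rose in KO1 and fell in KO2. In the marker sum and in Trim33, as over all genes, KO1 Myc was nearer to KO2 Ctrl and KO2 Myc nearer to KO1 Ctrl than to the Ctrl libraries of its own label. A response to the vector and a difference between the lines therefore cannot be told apart in the values given for KO1 and KO2 below. Under the WT label, mean Trim33 with the Myc vector was 144.9 CPM, nearer to KO1 Ctrl (126.3) than to WT Ctrl (241.5). Over all genes WT Myc differed less from KO1 Myc (0.525) than from WT Ctrl (0.571), the nearest of the Ctrl groups. What part of the WT values below comes from the vector was not tested.

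Trp53 was at 264 and 256 CPM in WT Myc, 264 and 263 in KO1 Myc and 272 and 291 in KO2 Myc, above each Ctrl vector library. Its log2FC was 0.24 ± 0.05 in WT (adjusted p = 0.00102), 0.17 ± 0.05 in KO1 (adjusted p = 0.0132, short of the threshold) and 0.20 ± 0.05 in KO2 (adjusted p = 0.00485). The WT call was lost without WT Ctrl replicate 2 (0.0123), and the KO2 call in DESeq2 (0.0132) and without either KO2 Ctrl library or KO2 Myc replicate 2 (0.0229 to 0.0726).

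The feedback genes went different ways. Mdm2 was at 207 and 231 CPM in WT Myc, 242 and 248 in KO1 Myc and 228 and 222 in KO2 Myc, a fall of 0.24 ± 0.06 on the log2 scale in WT (adjusted p = 0.00194), a rise of 0.35 ± 0.06 in KO1 (adjusted p = 0.000108) and 0.09 (-0.03 to 0.21) in KO2, which did not pass. The WT call of Mdm2 was lost without WT Ctrl replicate 2 (0.0241) or WT Myc replicate 1 (0.0148). Mdm4 was lower in WT Myc than in the other 5 groups, at 24.9 and 32.5 CPM, a fall of 0.71 ± 0.10 (adjusted p = 1.4e-05), and stood at 44.2 and 42.7 in KO1 Myc and at 53.3 and 49.6 in KO2 Myc, where its log2FC of 0.02 and 0.29 did not pass (adjusted p = 0.852 and 0.0142). Ccng1 rose to 279.7 and 334 CPM in WT Myc (0.51 ± 0.07, adjusted p = 1.68e-05) and to 370.3 and 395 in KO1 Myc (0.44 ± 0.07, adjusted p = 8.06e-05), and fell to 322 and 297 in KO2 Myc (-0.46 ± 0.07, adjusted p = 4.13e-05). Ppm1d stayed between 22.5 and 26.2 CPM in the Myc vector libraries and passed in none of the 3 groups.

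The arrest genes also diverged. Cdkn1a was at 158 and 136 CPM in WT Myc, a log2FC of 0.18 ± 0.07 that did not pass (adjusted p = 0.0459) but did without WT Myc replicate 2 (0.00077). It rose to 100.5 and 95.9 CPM in KO1 Myc (0.90 ± 0.08, adjusted p = 1.09e-07) and to 76.9 and 85.7 in KO2 Myc (0.29 ± 0.08, adjusted p = 0.00517), the latter lost without either KO2 Ctrl library or KO2 Myc replicate 2 (0.0299 to 0.0806). Even so, both knockout labels stayed below every library labelled WT Myc. Btg2 rose to 65.4 and 57.1 CPM in WT Myc (0.92 ± 0.08, adjusted p = 1.46e-07) and to 79.9 and 88.4 in KO2 Myc (0.65 ± 0.08, adjusted p = 2.92e-06), and fell to 38.0 and 40.4 in KO1 Myc (-1.05 ± 0.08, adjusted p = 1.86e-08). Plk2 fell to 249.9 and 215 CPM in WT Myc (-0.61 ± 0.08, adjusted p = 9.71e-06), rose to 303 and 288 in KO1 Myc (0.74 ± 0.08, adjusted p = 1.57e-06) and was at 233 and 273 in KO2 Myc, overlapping KO2 Ctrl. Zmat3 was at 92.1 and 104 CPM in WT Myc (0.28 ± 0.07, adjusted p = 0.00363), at 132 and 124 in KO1 Myc (1.09 ± 0.07, adjusted p = 4.72e-09) and at 94.6 and 86.5 in KO2 Myc, which overlapped KO2 Ctrl (0.09, -0.06 to 0.24). The WT call of Zmat3 was lost without either WT Ctrl library or WT Myc replicate 2 (0.0197 to 0.0318). Sesn1 rose to 6.58 and 6.63 CPM in WT Myc (0.69 ± 0.18, adjusted p = 0.00337), a call lost without WT Ctrl replicate 1 (0.0647), and stood at 9.52 and 10.4 in KO1 Myc and 8.42 and 8.69 in KO2 Myc, with log2FC of -0.01 and 0.11.

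**Figure D4:**
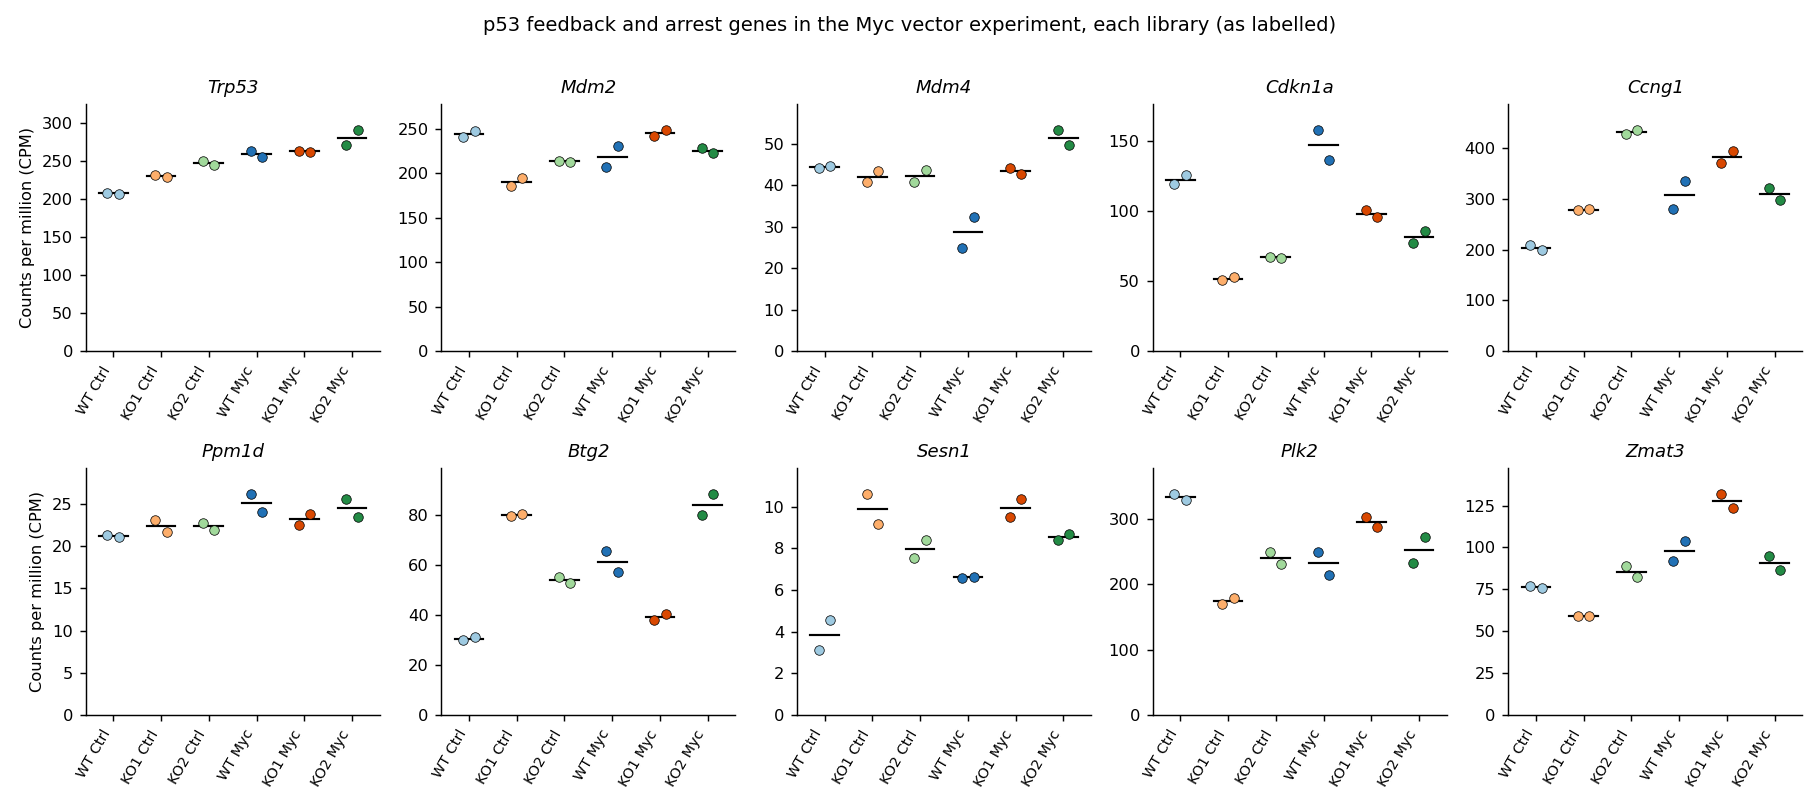
CPM (vertical axis, linear from 0) of each member in each library of the Myc experiment as labelled, with a bar at the mean of the 2 libraries of a group. Cdkn1a is lower in every knockout-labelled library than in the WT library of the same vector, and Btg2 is highest in KO1 Ctrl (79.5 and 80.6) and KO2 Myc (79.9 and 88.4).

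**Figure D5:**
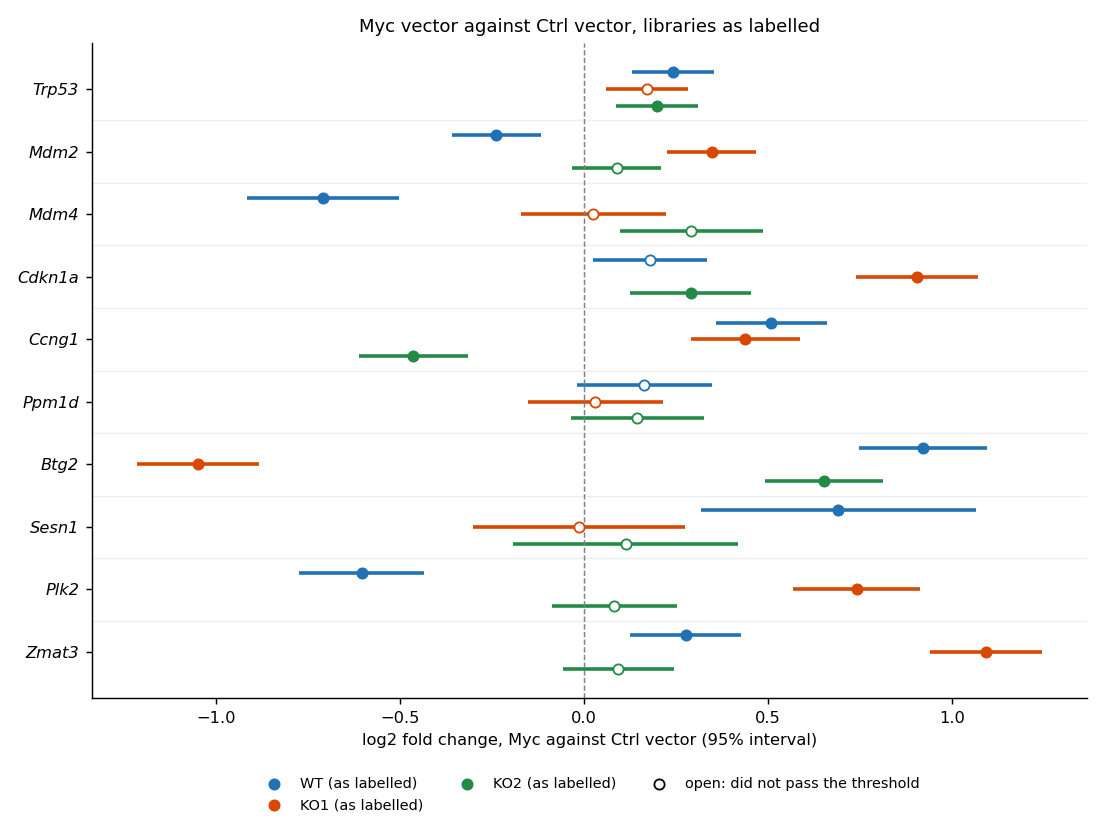
Log2 fold change of each member with the Myc against the Ctrl vector (horizontal axis) in libraries labelled WT, KO1 and KO2, with 95% intervals and 2 libraries per group. Filled points passed an adjusted p below 0.01; Btg2 runs from -1.05 in KO1 to 0.92 in WT, and the Trp53 points lie between 0.17 and 0.24.

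Between the Myc vector groups themselves, 7 members passed between KO1 and WT, 5 higher and 2 lower, where 25.1% of all genes passed (12.6% and 12.5%), and 3 between KO2 and WT, 2 higher and 1 lower, where 35.2% passed (17.2% and 18%). Cdkn1a was lower in both, by 1.49-fold in KO1 (-0.57 ± 0.07, adjusted p = 1.66e-05) and 1.79-fold in KO2 (-0.84 ± 0.07, adjusted p = 1.27e-07), and Mdm4 higher in both, by 1.52-fold (adjusted p = 0.000141) and 1.80-fold (adjusted p = 2.1e-06). Btg2 was lower in KO1 Myc (-0.63, adjusted p = 1.28e-05) and higher in KO2 Myc (0.47, adjusted p = 7.89e-05). Zmat3 (0.39), Plk2 (0.36), Ccng1 (0.33) and Sesn1 (0.60) were higher in KO1 Myc. Of these, only Zmat3 passed with the KO1 Myc and WT Myc libraries fitted alone. In that fit 4 members passed in place of 7, and over all genes 1541 passed in place of 3291. Leaving out KO1 Myc replicate 2 ended the calls of Ccng1 (0.0247) and Sesn1 (0.0386), leaving out KO1 Myc replicate 1 that of Plk2 (0.0201), and leaving out WT Myc replicate 1 that of Sesn1 (0.0111).

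The responses to the Myc vector differed between the libraries labelled KO1 and WT for 6 members, where 37.3% of all genes passed, and between those labelled KO2 and WT for 4, where 32.8% passed. Plk2 differed in both, with a response higher than in WT by 1.35 ± 0.11 in KO1 (adjusted p = 9.3e-08) and by 0.69 ± 0.11 in KO2 (adjusted p = 0.000128) on the log2 scale. So did Mdm4, by 0.73 ± 0.14 (adjusted p = 0.000287) and 1.00 ± 0.13 (adjusted p = 1.59e-05), and Mdm2, by 0.59 ± 0.08 (adjusted p = 1.81e-05) and 0.33 ± 0.08 (adjusted p = 0.0034). In KO1 alone Btg2 passed with the largest difference (-1.97 ± 0.11, adjusted p = 1.36e-09), followed by Zmat3 (0.82 ± 0.10, adjusted p = 6.09e-06) and Cdkn1a (0.73 ± 0.11, adjusted p = 3.59e-05). In KO2 alone Ccng1 passed (-0.97 ± 0.10, adjusted p = 9.34e-07). Each comparison reuses the WT libraries, and the KO2 call of Mdm2 was lost without either KO2 Ctrl library, WT Ctrl replicate 2 or KO2 Myc replicate 1 (0.0138 to 0.019).

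The lists beyond the members were split again. Of 50 further p53 targets, 20 rose and 12 fell with the Myc vector in libraries labelled WT, 22 rose and 10 fell in KO1 and 17 rose and 8 fell in KO2, where 21.6%, 17.9% and 20.2% of all genes rose. Of the 30 DREAM genes, 18 rose and 1 fell in WT, 4 rose and 6 fell in KO1 and 1 rose and 14 fell in KO2. Of all genes, 22.7%, 18.2% and 18.6% fell. Of 27 regulators of p53, 8 rose in each, while 4, 2 and 3 fell.

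Levels can be compared between genes only per length, and CPM per kilobase of annotated exon was used to order the members. The exons of all annotated transcripts of a gene were counted, so the transcripts in these cells may be shorter. Ccng1 and Plk2 held the first pair of ranks in every group of the Myc experiment, at 119.0 ± 2.5 (SD, n = 2) for Plk2 and 58.0 ± 1.8 for Ccng1 in WT Ctrl, where Cdkn1a (55.1 ± 1.9), Trp53 (51.4 ± 0.4) and Mdm2 (48.0 ± 0.95) followed. The libraries of Ccng1 and Cdkn1a lay close together there without overlapping. Mdm4 (12.6 ± 0.11), Btg2 (11.1 ± 0.36), Zmat3 (9.44 ± 0.11) and Ppm1d (6.68 ± 0.044) came next, and Sesn1 (1.16 ± 0.31) was last there, as in all 10 groups. In WT vehicle cells the order was led by Ccng1 at 159.0 ± 13.0 CPM per kilobase, with Trp53 at 40.7 ± 1.2, Mdm2 at 35.1 ± 1.0, Plk2 at 27.5 ± 3.9 and Cdkn1a at 24.4 ± 2.4. HU lifted Mdm2 to 248.0 ± 2.0, Cdkn1a to 219.0 ± 0.061 and Plk2 to 139.0 ± 7.3 in WT, behind Ccng1 at 295.0 ± 0.23, so that Trp53, at 40.9 ± 0.072, ranked 6 of 10, next to Btg2 at 41.5 ± 1.5 and within its spread.

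Among 10074 genes in both tables, those whose pattern over the 10 groups was most like each of 3 members were found by the root mean square difference of group means of log2(CPM + 0.5), centred within each experiment. Nearest to Mdm2 were its fellow member Plk2 (0.29), Trp53inp1 (0.29) and Dusp16 (0.31). Among the 3 nearest to Cdkn1a were Traf1 (0.23) and Klf4 (0.33), and nearest to Trp53 were Snrpd2 (0.06), Gm10120 (0.06) and Nop2 (0.07). The spread of the members' own patterns around their means was 0.91 for Mdm2, 1.01 for Cdkn1a and 0.20 for Trp53, so the small differences for Trp53 go with a flat pattern.

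The 10 genes lie on 6 chromosomes of mm9 and none shares exonic bases with another annotated gene. Trp53 is at chr11:69393861-69405375, Ccng1 at chr11:40562054-40568813 and Ppm1d at chr11:85124746-85160568. Mdm4 is at chr1:134886422-134921943 and Btg2 at chr1:135971747-135975697. Mdm2 is at chr10:117125944-117147814 and Sesn1 at chr10:41530380-41628230. Cdkn1a is at chr17:29227924-29237667, Plk2 at chr13:111185252-111191052 and Zmat3 at chr3:32233718-32264600. Trp53 and Mdm4 have an annotated pseudogene each, and how reads that match both were counted is not given in the sources used here.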

How the data were processed

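RNA-seq data of p19/Nras cells were analysed from 2 deposited tables of counts, 20 libraries in all. Per the labels and the study's methods, the authors mapped reads to mm9 with STAR 2.5.4 and tested genes with edgeR 3.26.8. The counting tool, annotation, strand setting and any filter before deposit are not given in the sources used here. The deposited counts are whole numbers with differing library totals, and were tested as raw counts. Those of the Myc experiment were deposited under a name that reads as normalized counts, and whether they had been scaled was not tested. Low counts (1 to 50) of the HU table were even in 70.2% to 73.3% of cases against 47.1% to 49.6% in the Myc table. Another 8 deposited files hold the authors' own comparisons (log2 fold change, log2 CPM, F, p and adjusted p) and were not used. All per-sample columns matched a label, so 0 were left out.

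In R 4.3.3, counts were tested with edgeR 4.0.16 (on limma 3.58.1), with TMM factors of 0.958 to 1.02, filterByExpr (0 genes removed), 1 coefficient per group and all groups of an experiment in 1 quasi-likelihood fit. P-values were two-sided and adjusted by Benjamini-Hochberg over all 13107 or 11210 genes, of which 298 and 168 have no symbol. The thresholds were 0.01 for knockout and Myc comparisons and 0.05 for HU. The common biological coefficient of variation was 0.0498 and 0.102. Taking each count as independent, the spread within each group was 2.15 times the counting variance or more. The many even low counts of the HU table leave that independence uncertain there. An excess over counting noise is therefore not read from that experiment. Its values were 4.43 in WT vehicle, 3.63 in KO vehicle, 2.22 in WT HU and 2.46 in KO HU. On simulated data, 98 of 100 genes changed by a log2FC of 1 were found for KO1 against WT and 87 of 100 for HU in WT, and of those changed by 0.5, 78 and 19 of 100. The simulation gave every gene the same dispersion and changed only those genes, drawn above a count floor, in a single group. In the real data many more genes passed and spreads differ by gene, so these shares may not hold there.

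Members are named throughout. From each further list, the 3 genes with the largest absolute log2FC among those called in both Ctrl vector knockout comparisons in 1 direction, and among those called in HU against vehicle in WT, are named if their mean is at least 5 CPM. Fas and Sesn3, below that mean, are named outside this rule. Of the genes with patterns most like a member's, 1 is not reported here. Members and lists were chosen with earlier results of these data known. Positions and sequences come from the mm9 (NCBIM37) genome with GENCODE vM1. Replicate numbers were not taken as pairs: same-numbered libraries' deviations correlated between -0.371 and 0.496, and the labels name no shared batch. Alternatives were DESeq2 1.42.0, its size factors, other filters and thresholds, the compared groups alone, a replicate block, halved HU counts, other scaling of levels and leaving out each library.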

Additional observations from a re-analysis of the deposited data

Results flagged for a closer look

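Some effects differed between groups that received the same treatment. The difference was tested for 15 of them in edgeR's quasi-likelihood fit. The response to the Myc vector in the libraries labelled KO1, less that in those labelled WT, was -1.971 for Btg2, 1.346 for Plk2, 0.816 for Zmat3, 0.734 for Mdm4, 0.726 for Cdkn1a and 0.585 for Mdm2 on the log2 scale. The same difference for the libraries labelled KO2 was 1.001 for Mdm4, -0.973 for Ccng1, 0.687 for Plk2 and 0.327 for Mdm2. The Myc libraries of each knockout label were nearer over all genes to the Ctrl libraries of the other, so these differences cannot be told apart from a difference between the lines. Trim33 mRNA differed in the same way in KO1, by 1.39 (adjusted p = 1.12e-08), and not past the threshold in KO2, by 0.11 (adjusted p = 0.396). The effect of KO2 less that of KO1 with the Ctrl vector was 0.60 for Ccng1, -0.597 for Btg2, 0.504 for Zmat3, 0.437 for Plk2 and 0.345 for Cdkn1a.

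For 3 members the knockout libraries lay on one side of WT with the Ctrl vector and on the other with vehicle in the HU experiment, without overlap in either. Of all 11161 genes in both tables, 20.3% did the same, so 3 of 10 is not far above the share of all genes. The difference between the experiments was not tested. With vehicle the log2FC was 0.791 for Cdkn1a, 0.274 for Mdm2 and -0.32 for Sesn1, the latter pair short of the threshold, against -1.30, -0.41 and 1.30 in KO1 and -0.95, -0.27 and 0.96 in KO2 with the Ctrl vector.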

How the results depend on the processing

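The replicate block changed no member call: 8 and 7 members still passed for HU in WT and KO cells, and counts of all genes moved by less than 1.5 times (HU in WT 1102 to 1230 genes). With the numbers of WT Myc and KO2 Myc crossed, an alternative added after seeing the data, 3 members and 5007 genes passed between them in place of 3 and 4614. DESeq2 size factors, the filters and halved HU counts left every count within 1.5 times, with directions of called members kept. With the compared groups alone, 4 members passed in place of 8 for Myc in WT, where the count of all genes is not given here. For KO1 against WT with Myc 4 passed in place of 7, and for KO against WT under HU 4 in place of 2. Over all genes, 1541 passed in place of 3291 for KO1 and 2775 in place of 4614 for KO2 against WT with Myc. For KO2 against KO1 4029 passed in place of 2398, and for KO against WT under HU 1097 in place of 677. DESeq2 called 727 genes in place of 1102 for HU in WT, 456 in place of 723 in KO, 402 in place of 677 and 396 in place of 626 for KO against WT with HU and vehicle, and 5 in place of 8 for the difference in HU response. At the threshold 0.01, 655, 427 and 2 genes passed for HU in WT, in KO and their difference. At 0.05, 1233 and 1349 passed for KO against WT with HU and vehicle, 4999 for KO1 against WT with Myc and 3748 for KO2 against KO1.

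Leaving out 1 library gave 5 to 6 members for HU in WT (5 without WT HU replicate 2), 0 to 1 for KO against WT under HU (0 without KO HU replicate 1), 3 to 4 for KO2 against KO1 (3 without KO1 Ctrl replicate 1 or KO2 Ctrl replicate 1), 2 to 4 for Myc in KO2 and 5 to 8 for Myc in WT (5 without WT Ctrl replicate 2). Over all genes it gave 553 to 933 for HU in WT, 389 to 542 in KO, 0 to 20 for their difference, 248 to 296 and 337 to 459 for KO against WT with HU and vehicle, 1906 to 4321 for KO1 against WT with Myc and 1383 to 1475 for KO2 against KO1. Signs turned in values near 0 that never passed: Ppm1d in KO2 against WT was 0.018 with the 5 CPM filter, 0.009 with those groups alone and -0.037 to 0.024 with a library left out, and -0.027 to 0.076 in KO1, and Trp53 with HU was -0.054 to 0.022 in WT and -0.07 to 0.045 in KO. The difference of Sesn1 in the Myc response between KO1 and WT, at -0.70 short of the threshold, passed without WT Ctrl replicate 2 (-1.01, adjusted p = 0.00411). Of 100 group means of members, 76 moved by less than 1 SD when scaled by TMM factors, and none by more than 4.34%. The causes of these changes were not tested. With a library left out, the count of all genes called also changed for Myc in KO2 and for Myc in WT. Nothing particular to the members is read from their counts there. At 2 libraries per group no rearrangement of labels can pass a threshold, and in the HU table, genes of few counts such as Sesn1 allow only wide intervals.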
